A study of Mus musculus with 12 samples.

Results

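Transcription factor genes that mark alveolar and airway epithelium were followed through cultured mouse type 2 alveolar (AT2) cells, the surfactant-making cells of the alveolus. The set of 10 was Nkx2-1, Foxa1, Foxa2, Cebpa, Cebpd, Gata6, Etv5, Ehf, Elf3 and Elf5, taken by symbol from the 55450 genes of the count table, and 10 of 10 were found and passed the filter on low counts. Ehf was known to respond to the extract when the set was drawn up, so its response is a description of size and not independent support. The cells came from AhRfl/fl mice, in which both alleles of the aryl hydrocarbon receptor gene are floxed but intact, and from Sftpc-Cre;AhRfl/fl mice, in which Cre driven from the Sftpc locus removes the floxed part in AT2 cells. Both genotypes were on the C57BL/6 background, 6 to 8 weeks old and matched for age and sex, so all 4 groups carried the floxed allele and the groups compared by genotype also differ by Cre itself. Cells of each genotype were kept for 24 h with phosphate-buffered saline (PBS) or with cockroach extract (CRE) at 50 ug/ml, and 3 libraries were sequenced in each of the 4 groups. The labels do not say whether libraries of a group came from separate mice or cultures, so p-values here measure the spread between libraries, which may be technical.

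These factors work in layers. NKX2-1, a homeodomain protein, sets lung identity and drives the surfactant genes together with the forkhead proteins FOXA1 and FOXA2, the zinc finger protein GATA6 and C/EBP alpha. C/EBP delta is a close relative of C/EBP alpha that is known as an acute-phase and glucocorticoid-responsive factor. The other members belong to the ETS family: ETV5 acts below fibroblast growth factor (FGF) receptor signalling and is needed to keep AT2 cells as AT2 cells, while EHF, ELF3 and ELF5 are epithelial ETS factors of airway, gland and mucosal surfaces.

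Library totals ran from 68878065 to 80935797 counts. Surfactant protein C, which defines AT2 cells, was listed at 2772 to 5465 FPKM (fragments per kilobase of transcript, scaled to library size), and the club cell secretoglobin Scgb1a1 at 7342 to 15747 FPKM, above Sftpc in 12 of 12 libraries. The ciliated cell factor Foxj1 was listed at 14.4 to 39.9 FPKM and the basal cell factor Trp63 at 0.0246 FPKM or less, so the factors described below were measured in cultures that held both AT2 and airway transcripts. In such bulk samples fewer cells of a type and less RNA per cell cannot be told apart. The Ahr row was at 40.2 to 49.6 CPM (counts scaled to library size with TMM factors) in Sftpc-Cre;AhRfl/fl PBS libraries and at 42.9 to 45.1 CPM in AhRfl/fl PBS libraries. That row counts the whole gene without separating the floxed part, so it does not check the labels. Cyp1b1, a textbook AhR target, was at 31.7 to 59.0 CPM in Sftpc-Cre;AhRfl/fl PBS libraries and at 344 to 404 CPM in AhRfl/fl PBS libraries (log2 -3.10, edgeR adjusted p = 0.000879).

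The promoter windows of the members are shown for 2 genes because one fell with CRE and the other alone carried the AhR core letters. RefSeq windows on GRCm38.p6, from 250 bases before to 50 bases after the annotated start, were read for 7 of the 10 members (11 windows). The strings searched on both strands were GCGTG (the AhR-ARNT core), TGANTCA (AP-1) and CCAAT (the NF-Y box). Capitals mark a match on either strand. The Etv5 windows lie at chr16:22439521-22439820 and chr16:22438319-22438618, both on the minus strand, and the Foxa2 window at chr2:148046920-148047219, also on the minus strand.
Etv5 start 1: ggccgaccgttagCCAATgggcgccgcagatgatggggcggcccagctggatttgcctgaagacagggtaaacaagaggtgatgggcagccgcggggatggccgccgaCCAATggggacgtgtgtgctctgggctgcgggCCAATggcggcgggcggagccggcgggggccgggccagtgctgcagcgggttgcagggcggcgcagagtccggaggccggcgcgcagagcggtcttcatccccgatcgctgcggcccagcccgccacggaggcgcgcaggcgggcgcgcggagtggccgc
Etv5 start 2: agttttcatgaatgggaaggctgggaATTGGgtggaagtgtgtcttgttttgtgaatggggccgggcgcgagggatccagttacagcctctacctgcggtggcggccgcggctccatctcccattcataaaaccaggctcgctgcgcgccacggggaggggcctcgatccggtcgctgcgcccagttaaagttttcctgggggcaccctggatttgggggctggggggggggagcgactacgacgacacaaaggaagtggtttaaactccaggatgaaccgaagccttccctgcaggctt
Foxa2 start 1: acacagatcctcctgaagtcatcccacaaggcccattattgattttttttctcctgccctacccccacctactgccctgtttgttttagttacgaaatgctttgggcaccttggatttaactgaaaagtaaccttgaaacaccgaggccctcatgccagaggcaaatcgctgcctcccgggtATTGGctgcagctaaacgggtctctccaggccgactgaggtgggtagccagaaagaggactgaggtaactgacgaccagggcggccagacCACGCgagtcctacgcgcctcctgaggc
The first Etv5 window held CCAAT 3 times and the second held it once, and CCAAT was also found once in the Foxa1 window, the first Foxa2 window and the Elf3 window. Of 32851 windows of the same length, 37.4% held at least 1 match. GCGTG was found once in each of the 3 Foxa2 windows and in no window of the other 6 genes read, against 32.4% of all windows. TGANTCA was in none of the 11 windows and in 7.81% of all windows. These counts describe letters in 300 bases, and no match says nothing about binding elsewhere. Ehf, Cebpd and Gata6 are not shown.

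Per unit of transcript length the members spanned a wide range. Foxa1 (44.0 ± 7.02 FPKM, SD over 12 libraries), Elf3 (43.8 ± 9.13) and Nkx2-1 (40.5 ± 28.0) headed the order of deposited FPKM values. Foxa2 followed at 29.4 ± 2.75 FPKM, then Ehf at 18.0 ± 8.05, Cebpa at 17.7 ± 7.43 and Gata6 at 10.9 ± 1.19. Etv5 stood at 4.39 ± 0.821 FPKM and Cebpd at 3.52 ± 0.922, and Elf5 came last at 0.239 ± 0.0690. Neighbours were told apart in all 12 libraries only at 2 places in this order: Gata6 (lowest 9.70 FPKM) lay above Etv5 (highest 5.67), and Cebpd (lowest 2.18) lay above Elf5 (highest 0.316). Every other pair of neighbours overlapped, and Foxa1 exceeded Elf3 in 6 of 12 libraries.

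**Figure D1:**
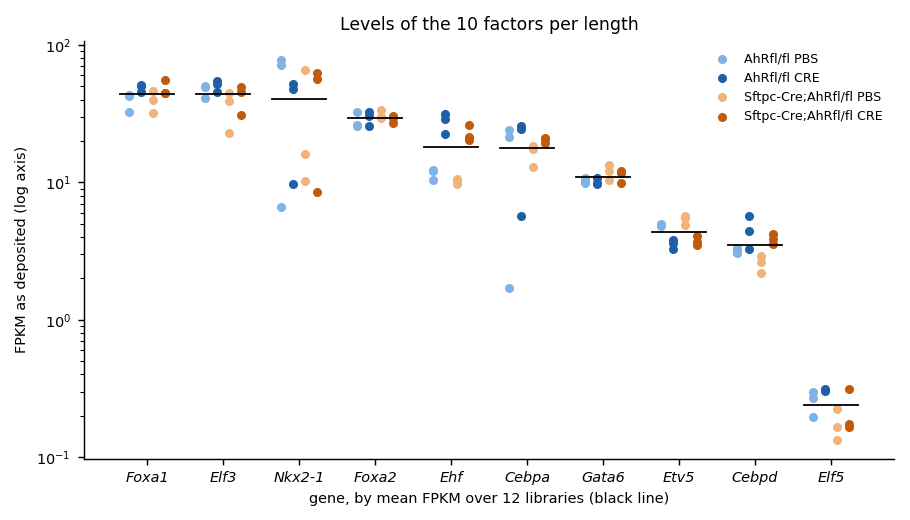
Deposited FPKM (log axis) of each factor in the 12 libraries, coloured by group, with genes ordered by the mean over 12 libraries (black line). The 2 breaks without overlap are between Gata6 and Etv5 and between Cebpd and Elf5, and Nkx2-1 spreads from 6.57 to 78.1 FPKM.

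The first comparison asked which of the factors responded to cockroach extract in each genotype. Among the ETS factors Ehf, a factor of mucosal and glandular epithelium, was higher with CRE in every library. In AhRfl/fl cells Ehf was at 64.0, 76.9 and 77.2 CPM with PBS and at 137, 199 and 184 CPM with CRE (replicates 1, 2 and 3). In Sftpc-Cre;AhRfl/fl cells it was at 63.1, 59.8 and 64.7 CPM with PBS and at 122, 134 and 167 CPM with CRE. No CRE library came near a PBS library of either genotype, the highest PBS value being 77.2 CPM and the lowest CRE value 122 CPM. The fold was 2.39 in AhRfl/fl cells (log2 1.25, SE 0.15, edgeR quasi-likelihood adjusted p = 0.00666) and 2.26 in Sftpc-Cre;AhRfl/fl cells (log2 1.17, SE 0.15, adjusted p = 0.00894). Taken over both genotypes it was 2.32 (95% interval 1.97 to 2.73, adjusted p = 0.000298). The gene was called in 20 of the 20 alternatives for this average, but not in the single genotypes when only the 6 libraries compared entered the fit (edgeR adjusted p = 0.0570 and 0.0509). In Sftpc-Cre;AhRfl/fl cells the call was also lost without PBS replicate 2 (edgeR adjusted p = 0.0576).

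**Figure D2:**
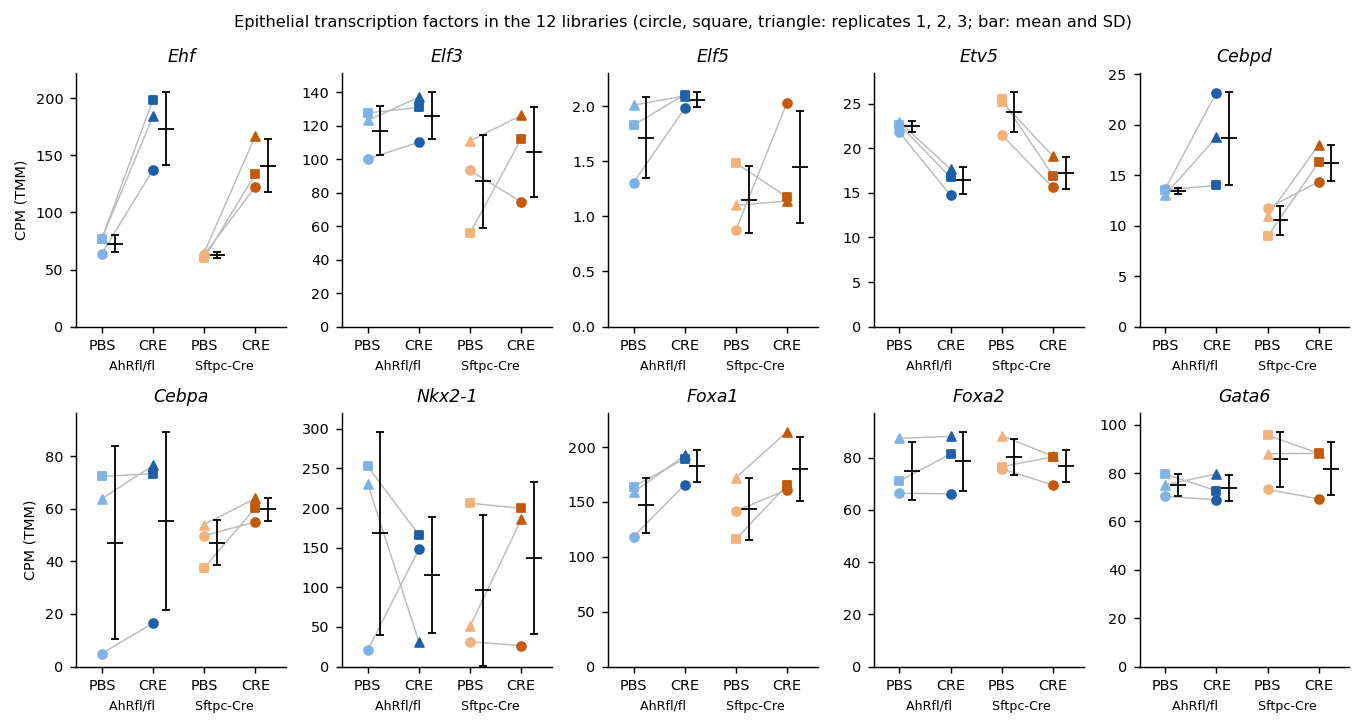
CPM of each factor by group, with circles, squares and triangles for replicates 1, 2 and 3, grey lines joining PBS and CRE libraries of the same number, and black bars for mean and SD (n = 3); Sftpc-Cre stands for Sftpc-Cre;AhRfl/fl. Ehf rises along all 6 lines and Etv5 falls along all 6, while Nkx2-1 and Cebpa scatter within groups.

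Ehf was the only member called by edgeR in either genotype alone, 1 of 10, beside a background of 0.233% of 20612 genes in AhRfl/fl cells and 0.262% in Sftpc-Cre;AhRfl/fl cells. Averaged over both genotypes, 2 of 10 members were called, Ehf higher and Etv5 lower, beside 1.10% of all genes. The PBS and CRE groups did not overlap for 4 of 10 members in AhRfl/fl cells (Ehf, Foxa1, Cebpd and Etv5, beside 16.5% of all genes), for 4 of 10 in Sftpc-Cre;AhRfl/fl cells (Ehf, Cebpa, Cebpd and Etv5, beside 11.8%) and for 3 of 10 across both genotypes (Ehf, Cebpd and Etv5, beside 1.50%). The median log2 fold change of the 10 members in the average was 0.24, against -0.0021 for all genes tested. Ehf was known to respond when the set was drawn up. Counts of members that include Ehf, and this median, are therefore descriptions and not independent support. Same-numbered PBS and CRE libraries deviated together, so the fits with the 6 pairs as a replicate block are given beside each call they changed.

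Etv5, the ETS factor of FGF receptor signalling in AT2 cells, moved the other way. In AhRfl/fl cells it was at 21.8, 22.7 and 23.0 CPM with PBS and at 14.7, 16.8 and 17.7 CPM with CRE. Sftpc-Cre;AhRfl/fl cells held 21.5, 25.5 and 25.3 CPM with PBS and at 15.6, 17.0 and 19.1 CPM with CRE. The highest CRE library lay below the lowest PBS library, and the ratio of CRE to PBS was between 0.665 and 0.770 in all 6 pairs. Averaged over both genotypes Etv5 fell by 0.47 on the log2 scale (SE 0.079, fold 0.722, edgeR adjusted p = 0.0185). In the single genotypes the log2 changes were -0.46 and -0.48, each with an edgeR adjusted p of 0.190. In the block of pairs they were called, at edgeR adjusted p = 0.0267 and 0.0268 (beside 3.63% and 2.13% of all genes), and the average at 0.00363. The averaged call was lost in 5 of the 12 fits that left out 1 library. Without AhRfl/fl PBS replicate 2 or 3 the edgeR adjusted p was 0.0580 and 0.0618, without AhRfl/fl CRE replicate 2 it was 0.0550, and without Sftpc-Cre;AhRfl/fl PBS replicate 2 or 3 it was 0.0604 and 0.0516.

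Markers of AT1 cells, the thin gas-exchange cells that AT2 cells can turn into, were lower in the same libraries as Etv5. Of the 9 AT1 markers, 9 had a log2 fold change below 0 with CRE averaged over genotypes, their median being -0.45. By edgeR 3 of the 9 were called lower, beside 1.10% of all genes. Those 3 were Ager (-0.83, adjusted p = 0.0472), the receptor used as the standard AT1 marker, Clic5 (-0.45, adjusted p = 0.0291) and Rtkn2 (-1.28, adjusted p = 0.0404), and 6 of 9 were lower with the replicate block, beside 6.59% of all genes. The summed AT1 level ran from 600 to 727 FPKM with PBS and from 407 to 482 FPKM with CRE in AhRfl/fl cells. For Sftpc-Cre;AhRfl/fl cells the range was 623 to 846 FPKM with PBS and 452 to 594 FPKM with CRE. The summed level of the 10 AT2 markers overlapped between treatments in Sftpc-Cre;AhRfl/fl cells (3328 to 6369 FPKM with PBS, 3455 to 6503 with CRE) and was 5518 to 6239 FPKM with PBS and 4769 to 5454 FPKM with CRE in AhRfl/fl cells. Most markers of several other cell types also had log2 values below 0 with CRE averaged over genotypes. These were 4 of 4 mesothelium markers (median log2 -0.30), 7 of 8 leukocyte markers (-0.12) and 6 of 7 fibroblast markers (-0.09). So were 5 of 8 alveolar macrophage (-0.39), 6 of 7 club (-0.06) and 6 of 8 ciliated markers (-0.10). The same held for 5 of 7 endothelium (-0.17) and 4 of 6 neutrophil markers (-0.09). Of the basal markers 1 of 3 tested was below 0. None of the markers of these types was called by edgeR without a block. The replicate block called 2 mesothelium, 3 fibroblast and 1 leukocyte marker lower, beside 6.59% of all genes. It also called 5 alveolar macrophage markers, 4 of them lower, and 2 club markers, 1 of them lower. With it 1 neutrophil and 1 basal marker were called higher. The mesothelium sum was 40.8 to 51.8 FPKM with PBS and 33.4 to 48.9 FPKM with CRE in AhRfl/fl cells, and 47.1 to 68.9 FPKM and 41.4 to 58.4 FPKM in Sftpc-Cre;AhRfl/fl cells. The part of cell makeup in the Etv5 result was not tested.

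The genes listed for FGF signalling around Etv5 were receptors, ligands and the feedback inhibitors of the Sprouty, Spred and Dusp families. None of the 17 was called in any of the 7 comparisons by edgeR, and 12 of 17 were below 0 with CRE averaged over genotypes. In AhRfl/fl cells 9 were above and 8 below 0 (median log2 0.02), and in Sftpc-Cre;AhRfl/fl cells 2 were above and 15 below 0 (median -0.13). Spry2, a feedback inhibitor of receptor tyrosine kinases, had a log2 fold change of -0.17 (edgeR adjusted p = 0.435), and Dusp4, a phosphatase that acts on MAP kinases, of 0.19 (edgeR adjusted p = 0.348). With the replicate block 2 of the 17 were called, both lower, beside 6.59% of all genes. These were Dusp6, a phosphatase of ERK (log2 -0.32, edgeR adjusted p = 0.00483), and Spry4 (log2 -0.39, edgeR adjusted p = 0.0413).

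The remaining ETS members differed less than their libraries varied. Elf3, an epithelial ETS factor of mucosal surfaces, was at 100.2, 128 and 123 CPM with PBS and 110.0, 131 and 137 CPM with CRE in AhRfl/fl cells. Sftpc-Cre;AhRfl/fl cells held 93.2, 55.9 and 111 CPM with PBS and 74.5, 112 and 126 CPM with CRE, so the groups overlapped in both genotypes. Its averaged log2 fold change was 0.19 (95% interval -0.20 to 0.57, edgeR adjusted p = 0.805). Elf5, a factor of secretory epithelium and the distal lung of the embryo, stayed between 0.875 and 2.10 CPM in all libraries, with an averaged log2 fold change of 0.30 (95% interval -0.18 to 0.77, edgeR adjusted p = 0.702).

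**Figure D3:**
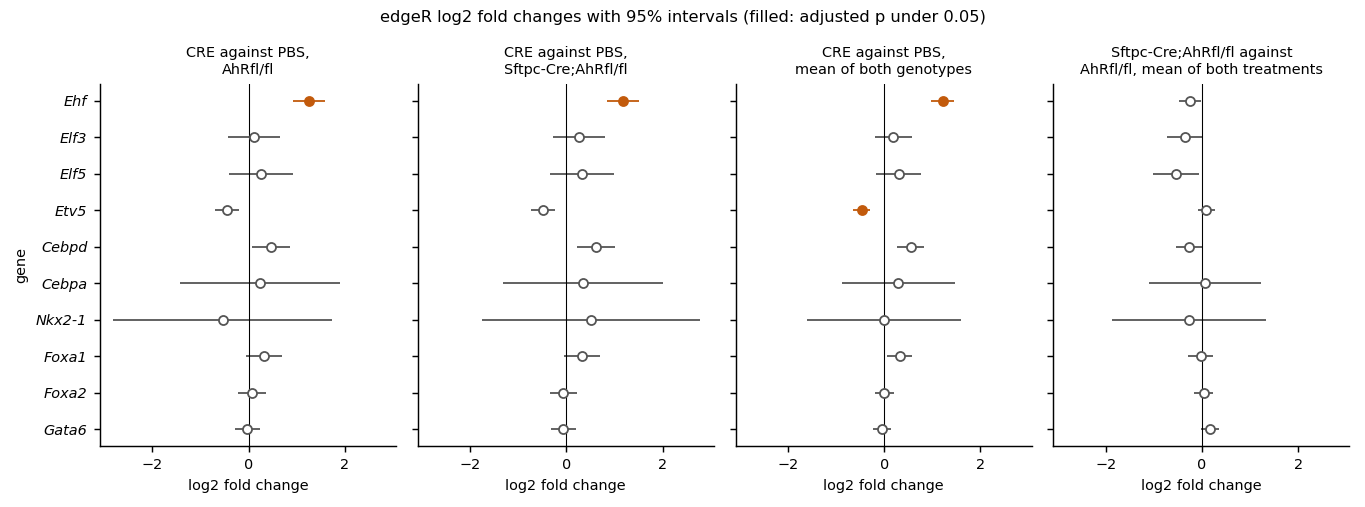
Log2 fold changes (x axis) of the 10 factors with 95% intervals from edgeR for 4 comparisons, with filled points where the adjusted p over 20612 genes was under 0.05. Ehf is filled in the 3 CRE panels and Etv5 in the averaged CRE panel, and the intervals of Nkx2-1 and Cebpa are the widest.

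Of the other 19 ETS genes, 1 was called with CRE averaged over genotypes, beside 1.10% of all genes. Etv3, an ETS-domain repressor, was at 70.5 ± 5.12 CPM with PBS and 104 ± 4.89 with CRE in AhRfl/fl cells, and at 70.9 ± 5.95 and 84.8 ± 12.9 CPM in Sftpc-Cre;AhRfl/fl cells (SD, n = 3). Its averaged log2 fold change was 0.41 (SE 0.078, edgeR adjusted p = 0.0349). The median of the 19 was 0.022. Ets2, a widely expressed ETS factor, was called as well as Etv3 with the replicate block (log2 0.17, edgeR adjusted p = 0.0242). That block called 6.59% of all genes.

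Cebpd was higher with CRE in 6 of 6 pairs, but its call depended on the fit. With PBS it was at 13.6, 13.5 and 13.0 CPM in AhRfl/fl cells, and with CRE at 23.2, 14.0 and 18.7 CPM. In Sftpc-Cre;AhRfl/fl cells the values were 11.7, 8.94 and 10.9 CPM with PBS and 14.3, 16.3 and 18.0 CPM with CRE. The groups did not overlap in either genotype, although AhRfl/fl CRE replicate 2 lay 1.03 times above its PBS partner. The averaged log2 fold change was 0.55 (SE 0.13, fold 1.46, edgeR adjusted p = 0.0818). It passed with the replicate block (log2 0.54, edgeR adjusted p = 0.0404), with DESeq2 (adjusted p = 0.00360, beside 3.39% of all genes) and without AhRfl/fl CRE replicate 2 (edgeR adjusted p = 0.0342). Cebpd is overlapped by Spidr on the opposite strand, and how strand entered the counting is not given in the sources used here.

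Cebpa, the C/EBP factor of surfactant and lipid genes, was above its PBS partner in 6 of 6 pairs while 2 libraries lay far below the rest. It was at 4.95, 72.3 and 63.8 CPM with PBS and at 16.5, 73.4 and 76.5 CPM with CRE in AhRfl/fl cells. In Sftpc-Cre;AhRfl/fl cells it was at 49.8, 37.6 and 54.0 CPM with PBS and 55.0, 60.4 and 63.9 CPM with CRE, and these groups did not overlap. Replicate 1 of both AhRfl/fl groups held 4.95 and 16.5 CPM, and all other libraries 37.6 CPM or more. The averaged log2 fold change was 0.29 (95% interval -0.88 to 1.46, edgeR adjusted p = 0.931). None of the other 5 C/EBP genes was called by edgeR. The most abundant of them were Cebpg (17.1 FPKM, averaged log2 0.04) and Cebpz (15.95 FPKM, averaged log2 0.09). With the replicate block only Ddit3, the stress-induced C/EBP member, was called (log2 -0.32, edgeR adjusted p = 0.0481), beside 6.59% of all genes.

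Nkx2-1, the master factor of lung epithelium, varied more within groups than between them. In AhRfl/fl cells it was at 20.5, 253 and 231 CPM with PBS and at 148, 166 and 31.6 CPM with CRE. The Sftpc-Cre;AhRfl/fl libraries were at 31.3, 206 and 50.8 CPM with PBS and at 26.4, 199.7 and 186 CPM with CRE. Each group held at least 1 library at 50.8 CPM or less and at least 1 at 148 CPM or more, and no library lay between those values. The low libraries were AhRfl/fl PBS replicate 1, AhRfl/fl CRE replicate 3, Sftpc-Cre;AhRfl/fl PBS replicates 1 and 3 and Sftpc-Cre;AhRfl/fl CRE replicate 1. The within-group SD of log2(CPM + 0.5) was 1.63, a size reached by 0.756% of the 14542 genes with a mean of at least 1 CPM. For Cebpa this SD was 1.23, reached by 2.65% of those genes, and for the other 8 members it lay between 0.12 and 0.35. The averaged CRE difference of Nkx2-1 was -0.01 on the log2 scale with a 95% interval from -1.61 to 1.59 (edgeR adjusted p = 0.999). It was counted at 1536 to 17899 counts per library.

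Genes overlapping or adjoining Nkx2-1 and Cebpa held few counts or varied less between libraries. Nkx2-1 lies at chr12:56531958-56536908 on the minus strand and is overlapped by Gm26973 on the opposite strand, which held 95 to 283 counts. Its neighbour on the same strand, Sfta3-ps, ran from 42.8 to 109 CPM, a 2.54-fold range against 12.3-fold for Nkx2-1. Cebpa lies at chr7:35119293-35121928 on the plus strand, and Gm45091 on the opposite strand held 0 to 21 counts against 371 to 5701 for Cebpa.

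**Figure D4:**
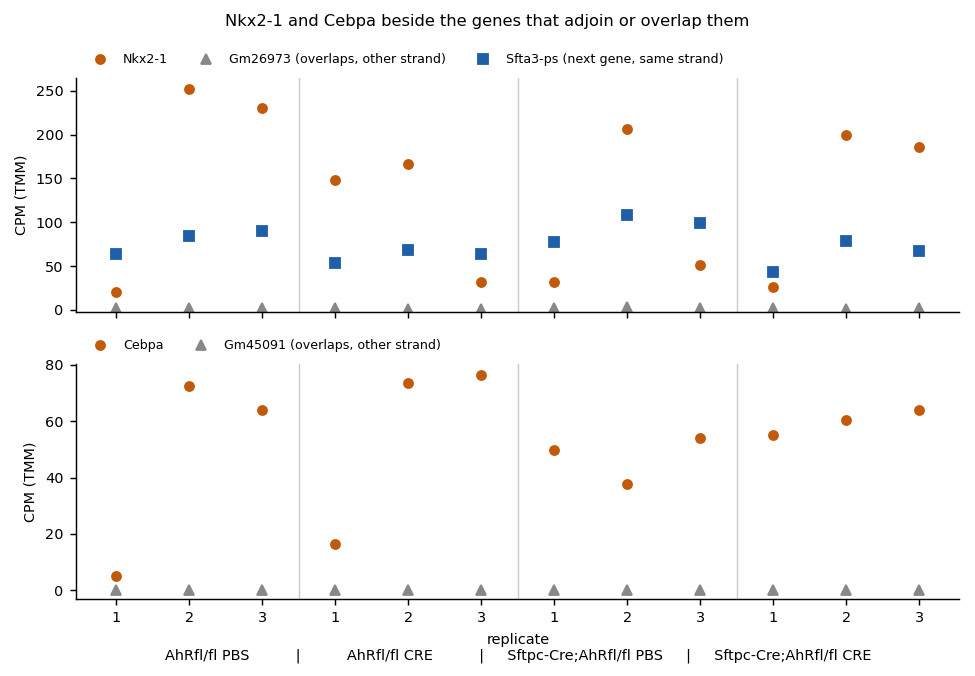
CPM in each of the 12 libraries (x axis, by group and replicate) of Nkx2-1 with its overlapping gene Gm26973 and neighbour Sfta3-ps (top) and of Cebpa with its overlapping gene Gm45091 (bottom). The 5 low libraries have Nkx2-1 at 50.8 CPM or less and Sfta3-ps at 42.8 to 99.0 CPM, against 42.8 to 109 CPM in all 12. The lowest Sfta3-ps value is in 1 of the 5, Sftpc-Cre;AhRfl/fl CRE replicate 1.

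Of the 10 surfactant and secretory genes listed as bound by NKX2-1 or C/EBP alpha, none was called by edgeR in any of the 7 comparisons, and their median log2 fold change with CRE averaged over genotypes was -0.08. Sftpc, the surfactant gene of AT2 cells, had a log2 fold change of -0.09 (edgeR adjusted p = 0.939) and Scgb1a1 of -0.26 (edgeR adjusted p = 0.720). In the block of pairs 6 of the 10 were called, 2 higher and 4 lower, beside 6.59% of all genes. Sftpd (0.29) and Lamp3 (0.30) were the higher ones, and Lpcat1 (-0.55), Scgb1a1 (-0.25), Abca3 (-0.18) and Sftpc (-0.09) the lower ones, on the log2 scale. In AhRfl/fl cells alone the block called Lpcat1 (-0.51), Scgb1a1 (-0.33) and Sftpc (-0.23) lower and Lamp3 (0.26) higher, beside 3.63% of all genes. In Sftpc-Cre;AhRfl/fl cells alone it called Lpcat1 (-0.60) lower and Sftpd (0.38) and Lamp3 (0.33) higher, beside 2.13%. Sftpc was not called in Sftpc-Cre;AhRfl/fl cells, where its log2 value without a block was 0.05.

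The forkhead members and Gata6 varied less between libraries than Nkx2-1 and Cebpa did. Foxa1, a pioneer factor that opens chromatin in endoderm, was at 118, 164 and 159 CPM with PBS and 166, 189 and 192 CPM with CRE in AhRfl/fl cells. Sftpc-Cre;AhRfl/fl libraries were at 142, 116 and 172 CPM with PBS and at 161, 165.5 and 214 CPM with CRE. It was higher with CRE in 6 of 6 pairs, by 1.14 to 1.43 times, with an averaged log2 fold change of 0.32 (95% interval 0.057 to 0.59, edgeR adjusted p = 0.326) that was called only with the replicate block (log2 0.33, edgeR adjusted p = 0.0159). In all, 4 of 10 members (Ehf, Cebpd, Foxa1 and Cebpa) were higher in 6 of 6 pairs, as were 7.57% of all genes tested, and 1 of 10 (Etv5) was lower in 6 of 6, as were 6.79%. With the replicate block 4 of 10 members were called in the average over genotypes (Ehf, Etv5, Foxa1 and Cebpd), beside 6.59% of all genes.

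Foxa2, the second FOXA pioneer factor, lay between 66.2 and 88.5 CPM in the 12 libraries, and Gata6, the GATA factor of lung endoderm, between 68.9 and 95.6 CPM. Their averaged log2 differences with CRE were 0.00 (95% interval -0.20 to 0.21) and -0.05 (95% interval -0.23 to 0.14). The sign of the Foxa2 value changed with the scaling, from 0.0028 with TMM to -0.0078 with library size alone. None of the other 18 forkhead and GATA genes was called by edgeR, the most abundant being Foxj1 (22.3 FPKM, averaged log2 -0.0033) and Foxo3 (16.3 FPKM, averaged log2 0.18). In the block of pairs 4 of them were called, beside 6.59% of all genes. Foxp1 (0.69) and Foxo3 (0.17) were higher and Foxp2 (-0.55) and Gata5 (-0.58) lower.

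Among 25 further lung epithelial factors, 24 were tested and none was called by edgeR. Irx1 (59.5 FPKM), an Iroquois homeodomain factor of lung patterning, had an averaged log2 fold change of -0.16, and Id2 (43.8 FPKM), an inhibitor of basic helix-loop-helix factors, of 0.06. Tfcp2l1 alone was called with the replicate block (0.15, edgeR adjusted p = 0.0481), beside 6.59% of all genes.

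The second comparison asked whether the factors differed between genotypes. No member was called by edgeR with PBS (beside 0.150% of all genes), with CRE (0.170%) or averaged over treatments (0.631%). At an unadjusted p under 0.05 there were 0, 0 and 2 members in these comparisons, and DESeq2 called 0 in each, beside 1.14%, 0.830% and 2.49% of all genes. The 2 members were Elf5, with an averaged log2 difference of -0.54 (Sftpc-Cre;AhRfl/fl minus AhRfl/fl, 95% interval -1.01 to -0.07, edgeR adjusted p = 0.418), and Ehf, with -0.26 (95% interval -0.49 to -0.03, edgeR adjusted p = 0.429). Elf5 was at 1.31, 1.83 and 2.01 CPM in AhRfl/fl PBS libraries and 0.875, 1.48 and 1.10 CPM in Sftpc-Cre;AhRfl/fl PBS libraries, which overlap. With CRE it was at 1.98, 2.10 and 2.09 CPM and at 2.03, 1.17 and 1.14 CPM, where 1 of the 3 Sftpc-Cre;AhRfl/fl libraries reached the AhRfl/fl range. Cebpd with PBS was the only member whose genotypes did not overlap, at 13.0 CPM or more in AhRfl/fl and 11.7 CPM or less in Sftpc-Cre;AhRfl/fl cells (log2 -0.35, edgeR adjusted p = 0.649), beside 14.0% of all genes. Several marker lists lay to one side of 0 in the averaged genotype difference, with no marker of these lists called by edgeR. Above 0 were 8 of 8 ciliated markers (median log2 0.54), 7 of 9 AT1 markers (0.11) and 4 of 4 mesothelium markers (0.05). Below 0 were 6 of 6 neutrophil markers (median -0.99) and 3 of 3 basal markers tested (-0.64). So were 7 of 8 alveolar macrophage markers (-0.32) and 9 of 10 AT2 markers (-0.17). DESeq2 called 3 ciliated markers and 1 basal marker, beside 2.49% of all genes. The study's rule (unadjusted p under 0.05 and absolute log2 fold change above 0.5) called more, beside 4.11% of all genes. These were 5 ciliated, 2 neutrophil, 1 basal, 1 alveolar macrophage and 1 AT1 marker. The summed ciliated level was 61.7 to 79.1 FPKM in AhRfl/fl PBS libraries and 81.4 to 129 FPKM in Sftpc-Cre;AhRfl/fl PBS libraries. For neutrophil markers the sums were 7.25 to 50.2 FPKM and 3.80 to 18.6 FPKM, and for basal markers 3.65 to 5.21 FPKM and 2.43 to 4.34 FPKM, in the same order. Their part in the genotype differences of the members was not tested.

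The third comparison asked whether the response to CRE differed between genotypes. No member was called for the interaction by edgeR or DESeq2, and none had an unadjusted p under 0.05 by edgeR. Over all 20612 genes edgeR called 0 (0%), with 763 at an unadjusted p under 0.05, and DESeq2 called 22 (0.107%). For Ehf the difference of the log2 responses (Sftpc-Cre;AhRfl/fl minus AhRfl/fl) was -0.08 with a 95% interval from -0.54 to 0.38, for Etv5 -0.03 (-0.38 to 0.32) and for Cebpd 0.15 (-0.41 to 0.70). The interval for Nkx2-1 ran from -2.15 to 4.27, so that comparison left a wide range of differences undecided.

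The genes whose profiles over the 12 libraries lay nearest to Ehf were found by the root mean square difference of log2(CPM + 0.5), each gene centred on its own mean, among 14542 genes. Gclc, the catalytic subunit of the enzyme that starts glutathione synthesis, was nearest at 0.098. Akr1b8, an aldo-keto reductase, followed at 0.129, and Slc39a4, a zinc importer, at 0.167. The median gene lay 0.666 from Ehf. With CRE averaged over genotypes Gclc rose by 1.16 on the log2 scale (edgeR adjusted p = 0.00019), Akr1b8 by 1.03 (edgeR adjusted p = 0.000632) and Slc39a4 by 1.29 (edgeR adjusted p = 0.00019). Their group means rose with CRE in both genotypes, as for Gclc from 739 to 1741 CPM in AhRfl/fl cells and from 630 to 1336 CPM in Sftpc-Cre;AhRfl/fl cells.

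For Etv5 the nearest profile was that of Clic5, an intracellular chloride channel family member that is also on the AT1 marker list, at 0.098. Nrbp2, a pseudokinase, lay at 0.109 and Baiap2l1, a membrane-bending adaptor of actin, at 0.118, with the median gene at 0.315. Clic5 had group means of 765 and 560.0 CPM with PBS and CRE in AhRfl/fl cells and 879.8 and 648 CPM in Sftpc-Cre;AhRfl/fl cells. The averaged log2 changes were -0.45 for Clic5, called as above, -0.45 for Nrbp2 (edgeR adjusted p = 0.0602) and -0.29 for Baiap2l1 (edgeR adjusted p = 0.0908). Likeness was measured on the same libraries as the CRE response and is a description.

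**Figure D5:**
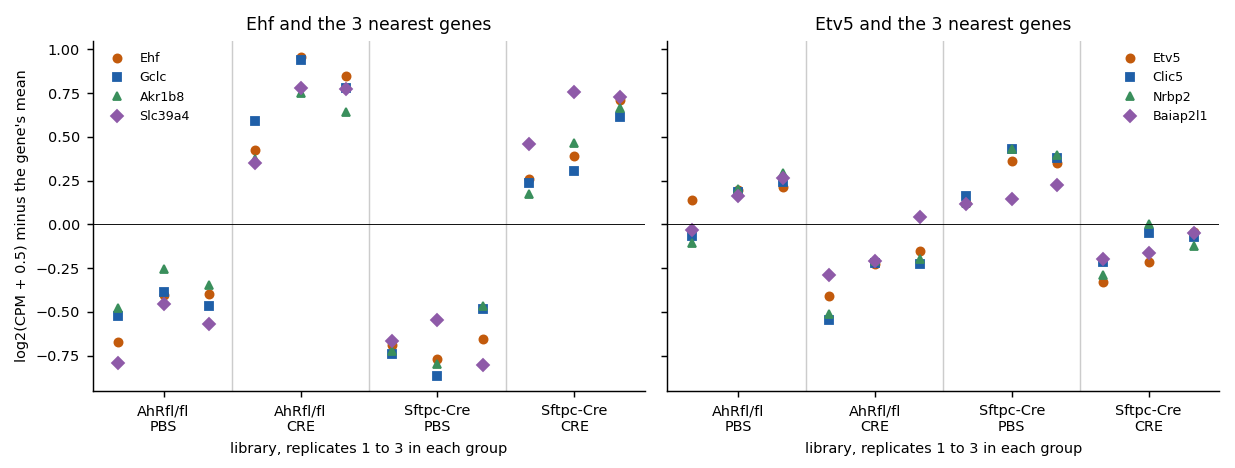
Centred log2(CPM + 0.5) in the 12 libraries (x axis, replicates 1 to 3 in each group) of Ehf with Gclc, Akr1b8 and Slc39a4 (left) and of Etv5 with Clic5, Nrbp2 and Baiap2l1 (right); Sftpc-Cre stands for Sftpc-Cre;AhRfl/fl. The genes on the left are above their mean in the 6 CRE libraries and below it in the 6 PBS libraries.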

How the data were processed

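Raw whole-number counts and FPKM per gene were deposited by the authors for 12 libraries. TruSeq stranded mRNA libraries were aligned to GRCm38 with STAR 2.7.2b, annotated with Partek and RefSeq and counted with Salmon, and how whole counts were reached is not given in the sources used here. The deposited FPKM values served for levels between genes and for summed marker levels by group, with no test. All 55450 gene IDs were named from GENCODE M21. Counts were filtered with filterByExpr (minimum 10, leaving 20612 genes), scaled by TMM (factors 0.969 to 1.03) and tested with edgeR 4.0.16 (quasi-likelihood, R 4.3.3) in 1 fit of 4 group means, with Benjamini-Hochberg adjustment over all genes at 0.05, two-sided. The fit was tested on simulated data. DESeq2 1.42.0, limma-trend (limma 3.58.1) with the study's rule (unadjusted p under 0.05 and an absolute log2 fold change above 0.5), other scalings and filters, replicate blocks and fits without 1 library were alternatives. At these depths a count of 0 allows up to 0.0436 CPM (3 counts), and intervals are 95% intervals of the fit.

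The labels give each group replicates 1 to 3. Deviations from group means of same-numbered PBS and CRE libraries correlated at 0.418 to 0.729 in AhRfl/fl cells and 0.325 to 0.589 in Sftpc-Cre;AhRfl/fl cells over 14542 genes, so these were treated as pairs from the data.

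The members and lists were chosen with earlier results of these data known. The text names all members, every gene of the other factor lists called by edgeR or else the 2 with the highest FPKM, and the 3 genes nearest to Ehf and Etv5. The other genes named (calls of 6 or fewer with the block) were chosen after their values were seen.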

Additional observations from a re-analysis of the deposited data

How the results depend on the processing

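Of 1030 member log2 fold changes recomputed under an alternative (all 10 members in 6 comparisons, and Ehf, Etv5 and Cebpd for the interaction), 938 kept their direction and side of the threshold, 9 lost and 13 gained a call, and 70 changed sign, 0 of them for a value that was called. Members called with CRE in AhRfl/fl cells numbered 1, but 2 with DESeq2 (beside 1.83% of all genes) or the pairs as a replicate block (3.63%) and 0 with only the libraries compared. In Sftpc-Cre;AhRfl/fl cells they numbered 1, but 2 with DESeq2 (1.15%), the study's rule (3.38%), the additive replicate block (0.543%) or the pairs (2.13%), 0 with only the libraries compared and 0 to 1 without 1 library. Averaged over genotypes they numbered 2, but 3 with DESeq2 (3.39%) or the additive replicate block (2.57%), both adding Cebpd, 4 with the pairs as a block (6.59%) and 1 to 2 without 1 library. The study's rule gave 2 (4.02%), Ehf and Cebpd, without Etv5. For genotype averaged over treatments 0 became 1 (Elf5) with the study's rule (4.11%). Neither replicate block changed another member call.

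Other listed factors called by DESeq2 and by the study's rule numbered 1 (Etv3) and 2 (Etv3, Foxp1) with CRE in AhRfl/fl cells, 0 and 3 (Cebpe, Foxp1, Tead1) in Sftpc-Cre;AhRfl/fl cells, 3 (Ddit3, Etv3, Foxp1) and 2 (Foxp1, Foxp2) averaged over genotypes, and 4 (Etv4, Foxj1, Foxp1, Sox9) and 5 (those and Foxc2) for genotype averaged over treatments, against 0, 0, 1 (Etv3) and 0 by edgeR. These counts are out of 66 factors tested. In the same order of comparisons, DESeq2 called 1.83%, 1.15%, 3.39% and 2.49% of all genes and the study's rule 4.11%, 3.38%, 4.02% and 4.11%. The study's rule also called 5 for genotype with PBS (Cebpe, Etv4, Foxp1, Sox9, Tead1), beside 4.10% of all genes. It called 5 for genotype with CRE (Etv4, Foxj1, Foxp1, Grhl3, Sox9), beside 3.42%, and 1 for the interaction (Tead1), beside 2.30%. DESeq2 and edgeR called 0 of these factors for genotype with PBS, genotype with CRE and the interaction. Of the 17 FGF signalling genes, DESeq2 called 1 with CRE averaged over genotypes, beside 3.39% of all genes. For genotype it called 1 with PBS (1.14%) and 2 averaged over treatments (2.49%). The study's rule called 2 of the 17 for genotype with PBS (4.10%), 2 with CRE (3.42%) and 2 averaged over treatments (4.11%). The order of levels kept 10 of 10 places with CPM per kilobase of merged exon and 6 to 10 without 1 library.

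Changes of sign under other settings concerned Nkx2-1, Foxa2 and Cebpa, and the cause was not tested. Nkx2-1 turned to 0.17 with CRE in AhRfl/fl cells and to -0.39 for genotype with CRE under the additive replicate block, and averaged over genotypes to 0.16 with the study's rule, 0.37 with the additive block and 0.088 with the pairs. Foxa2 averaged over genotypes turned to -0.00057 with DESeq2, -0.00055 with RLE factors, -0.0078 with library size alone and -0.0028 with the 1 CPM filter. Cebpa for genotype with PBS turned to -0.00091 with only the libraries compared. For the interaction Cebpa turned from 0.10 to -0.32 with the study's rule and to -0.28 with the pairs.

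Without 1 library, some log2 values spanned 0. With CRE in AhRfl/fl cells this held for Foxa2 from -0.021 to 0.19, Cebpa from -0.30 to 0.69 and Gata6 from -0.084 to 0.021. With CRE in Sftpc-Cre;AhRfl/fl cells this held for Foxa2 from -0.10 to 0.012 and Gata6 from -0.17 to 0.042. With CRE averaged over genotypes this held for Nkx2-1 from -0.28 to 0.60, Foxa2 from -0.042 to 0.066 and Gata6 from -0.096 to 0.0082. For genotype with PBS this held for Foxa1 from -0.19 to 0.095 and Cebpa from -0.53 to 0.45. For genotype with CRE this held for Nkx2-1 from -0.20 to 0.74, Foxa1 from -0.16 to 0.055, Foxa2 from -0.14 to 0.058, Cebpa from -0.33 to 0.41 and Etv5 from -0.0099 to 0.14. For genotype averaged over treatments this held for Foxa1 from -0.10 to 0.038, Foxa2 from -0.021 to 0.096 and Cebpa from -0.21 to 0.28. For the interaction this held for Ehf from -0.22 to 0.029, Etv5 from -0.11 to 0.037, Cebpd from -0.024 to 0.33, Foxa1 from -0.12 to 0.17, Cebpa from -0.35 to 0.64, Gata6 from -0.14 to 0.067, Elf3 from -0.076 to 0.38 and Elf5 from -0.26 to 0.29. Same-numbered libraries of the 2 genotypes did not all deviate together (correlations 0.042 to 0.42 with PBS and -0.029 to 0.41 with CRE), and the additive replicate block called 0 members for genotype.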
